A study of Mus musculus with 4 samples.

Results

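The regions described here are moderate ATAC-seq peaks that were called in both libraries of activin-treated LβT2 cells (LbT2b in the sample titles) and in neither library of vehicle-treated cells. ATAC-seq finds open chromatin by the places where a transposase can insert sequencing adapters. Peaks of all 4 libraries that overlapped by at least 1 bp were merged into 255101 regions. A region was kept when both activin libraries had a peak in it whose −log10 q, the authors' significance value for that peak, lay from 2 to under 5, and when neither vehicle library had a peak of any strength there. This left 660 regions, or 0.259% of all merged regions. The same rule was applied to the vehicle pair and to the 4 mixed pairs of 1 vehicle and 1 activin library, which gave 904 regions in all for the mixed pairs. The mixed pairs are the comparison used throughout, and they share their libraries with the activin pair. Peak strength in the 4 libraries chose the regions, so strength is given below as a description, and annotation, position, neighbouring genes and neighbouring regions are what the rule did not use.

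LβT2 is an established mouse line that resembles gonadotropes, the pituitary cells that secrete luteinising and follicle-stimulating hormone. One group of 2 libraries came from cells given vehicle and the other group of 2 from cells given activin A at 1 nM, for 6 h in both, after a night without serum. The study concerned enhancers of Fshb, which encodes the β subunit of follicle-stimulating hormone. The labels do not say whether libraries of a group came from separate cultures, so spread between them may be technical. In these bulk libraries, opening in more cells and wider opening per cell cannot be told apart.

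Activin is a ligand of the TGFβ family. It binds a receptor complex of Acvr2a or Acvr2b with a partner kinase, which phosphorylates Smad2 and Smad3. These join Smad4, enter the nucleus and bind DNA at short boxes, usually beside other transcription factors. Inhibitory Smads and Smurf ubiquitin ligases damp the signal, and in gonadotropes the pathway is known for driving Fshb together with Foxl2.

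The letters under the regions can be shown only where a region meets a RefSeq promoter sequence. Of the 660 regions, 24 overlapped the 250 bases upstream of a RefSeq start (assembly GRCm38.p6), in 27 windows, and 13 of these 24 were among the 39 regions that the authors' annotation places at a promoter. The 4 shown are the promoter regions with the highest strength in their weaker activin library among those whose annotated symbol is also the RefSeq symbol of the window, which leaves out Mum1l1 (Pwwp3b in RefSeq). They lie on the minus strand at chr13:3893582-3893831 for Net1, chr11:100712468-100712717 for Kat2a, chrX:167209219-167209468 for Tmsb4x and chr9:76567116-76567365 for Fam83b. Each is written 5′ to 3′ towards the gene, and capitals mark CAGAC on either strand (GTCTG as written), the core of a SMAD box.
Net1: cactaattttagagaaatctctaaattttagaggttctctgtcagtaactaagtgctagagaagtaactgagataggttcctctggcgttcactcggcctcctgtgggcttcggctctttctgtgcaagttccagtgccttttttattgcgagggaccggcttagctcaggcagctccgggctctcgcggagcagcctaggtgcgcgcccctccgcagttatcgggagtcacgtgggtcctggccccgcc
Kat2a: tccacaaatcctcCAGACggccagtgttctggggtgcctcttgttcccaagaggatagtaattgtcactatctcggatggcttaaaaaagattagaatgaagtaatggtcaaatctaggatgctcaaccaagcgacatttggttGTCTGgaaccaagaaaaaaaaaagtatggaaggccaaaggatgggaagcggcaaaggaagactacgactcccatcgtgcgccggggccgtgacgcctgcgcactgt
Tmsb4x: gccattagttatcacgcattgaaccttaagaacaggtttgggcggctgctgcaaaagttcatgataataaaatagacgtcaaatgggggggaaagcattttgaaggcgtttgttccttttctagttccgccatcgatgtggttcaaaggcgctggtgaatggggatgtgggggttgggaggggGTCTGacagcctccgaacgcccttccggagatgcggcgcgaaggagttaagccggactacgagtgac
Fam83b: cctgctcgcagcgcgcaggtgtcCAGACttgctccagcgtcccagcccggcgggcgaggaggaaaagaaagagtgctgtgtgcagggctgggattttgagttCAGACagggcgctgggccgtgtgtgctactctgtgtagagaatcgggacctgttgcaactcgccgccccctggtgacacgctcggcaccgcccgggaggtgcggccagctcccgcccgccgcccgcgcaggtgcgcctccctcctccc
The region called with activin covered 92 bases of the Net1 window, 75 of the Kat2a window, 23 of the Tmsb4x window and the whole 250 of the Fam83b window. Where cover was partial, it was the end nearest the gene, printed last. CAGAC occurred 2 times in the Kat2a and Fam83b windows, once in that of Tmsb4x and not in that of Net1. The boxes marked for Kat2a and Tmsb4x lay outside the called regions. Motifs were counted over whole windows, including bases that the regions did not cover. Over all 27 windows CAGAC occurred in 15 (55.6%). It occurred in 42.2% of the 32817 RefSeq windows of the same length and in 11 of the 18 windows met by mixed-pair regions (61.1%). An E-box, CANNTG, occurred in 23 of the 27 (85.2%), against 66.2% of all windows and 61.1% of mixed-pair windows. AGATAA, the GATA motif, was in 6 (22.2%, against 9.99% of all windows and 11.1% of mixed-pair windows), the AP-1 motif TGANTCA in 2 (7.41%, against 6.75% and 11.1%) and CCAAT in 7 (25.9%, against 33.8% and 9 of the 18 mixed-pair windows). Shares of the other motifs searched follow for the 27 windows, all windows and mixed-pair windows. SMAD GGCGCC had 7.41%, 9.59% and 22.2%, PITX TAATCC 0%, 6.25% and 0%, and EGR1 GTGGGCG 3.70%, 7.02% and 5.56%. SF-1 AAGGTCA had 3.70%, 4.08% and 0%, and CRE TGACGT 7.41%, 6.46% and 5.56%. FOX GTAAACA had 3.70%, 3.16% and 5.56%, and LIM TAATTA 7.41%, 4.85% and 0%. No motif share was tested. A region can meet 2 windows that overlap, as at Tmem106a. All motifs were searched on both strands, and matches of different motifs may overlap. Median GC content was 51.2% in the 27 windows and 52.4% in all.

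The libraries held 275983526 to 375610146 reads, of which 172146474 to 224226184 were high-quality autosomal reads. Vehicle library 2 stood apart with 178358 called peaks, against 70692 to 85112 in the other libraries. Start-site enrichment of reads was higher with activin (3.12 and 3.04) than with vehicle (2.72 and 2.48). Of 9 gonadotrope marker genes, 6 had a peak within 1 kb of the start site in every library (Lhb, Cga, Gnrhr, Nr5a1, Gata2 and Egr1), and Fshb had one in none. Foxl2 lacked one in vehicle library 2 and Pitx1 in vehicle library 1. None of 6 markers of other pituitary cells and neither of 2 markers of folliculostellate or stem cells had such a peak in every library. Some had one in part of the libraries. Gh had one in vehicle library 2 (3.20) and activin library 1 (1.28), and Pomc in both vehicle libraries (1.58 and 1.31). Tbx19 had one in vehicle library 2 (1.54) and S100b in activin library 2 (1.14).

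Regions of this strength were more numerous for the activin pair than for any other pair of libraries. The vehicle pair gave 285 (0.112% of merged regions). Vehicle 1 with activin 1 gave 123 (0.0482%), vehicle 1 with activin 2 gave 44 (0.0172%), vehicle 2 with activin 1 gave 535 (0.21%) and vehicle 2 with activin 2 gave 202 (0.0792%). The activin pair thus exceeded the highest mixed pair by 125 regions. Only 3 ways exist to split 4 libraries into 2 and 2, so no test of the count was made. The order depended on strength. With the lower bound at 1.5, the activin pair had 1663 regions and the highest mixed pair 3113, and at 3 it had 135 against 56. Without vehicle library 2 the counts were 1897 against 581, and without vehicle library 1 they were 1147 against 1106. With the same number of peaks kept in every library, the counts were 1142 against 573. Start-site enrichment and the number of called peaks also differed between libraries. Beyond the counts given here, their part was not tested.

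The pairs also differed in how strong their shared peaks were. The activin pair had 3454 regions restricted to its 2 libraries at any strength, and 660 of these (19.1%) met the rule. In the other pairs the share was 2.30% of 12397 for the vehicle pair and 2.93% to 5.11% for the mixed pairs. These shares use the strength values of the rule and are a description only. Regions weaker than 2 in at least 1 library made up most of the larger totals. They numbered 12098 for the vehicle pair and 10236 of 10855 for vehicle 2 with activin 1. Of the remaining activin-only regions, 2645 were weaker than 2 in at least 1 library, 124 were moderate in one library and at or above 5 in the other, and 25 were at or above 5 in both.

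**Figure D1:**
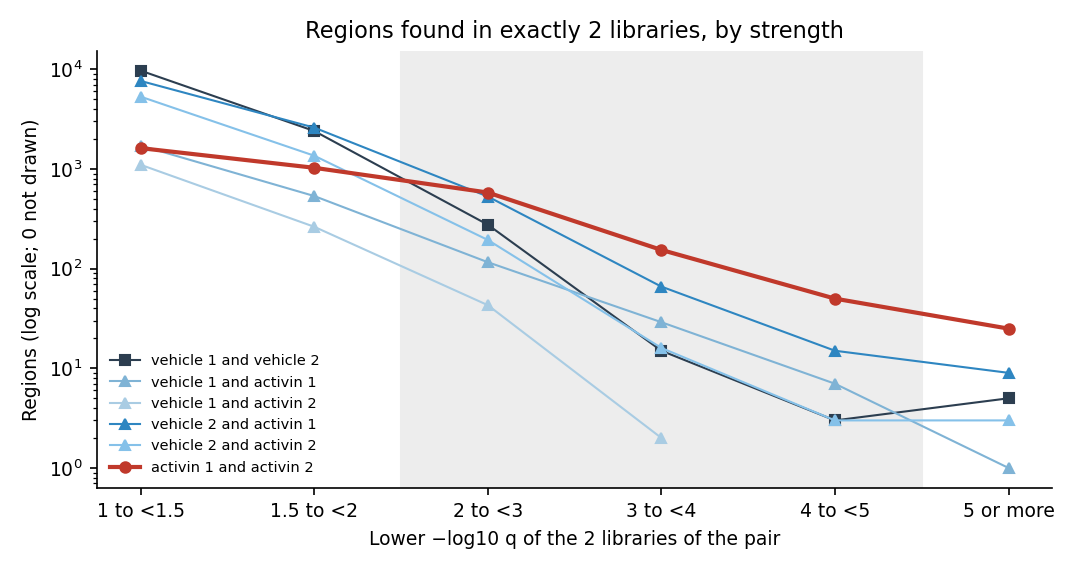
Number of merged regions found in exactly 2 of the 4 libraries (log scale), by the lower −log10 q of those 2, with a line for each pair of libraries; the grey band spans the bins from 2 to under 5. The activin pair has 1618 regions in the weakest bin, where the vehicle pair has 9694, and 50 in the bin from 4 to under 5, where no other pair has more than 15.

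Strength varied widely among the 660 regions, and the activin libraries ranked them differently. The −log10 q ran from 2.00 to 5.00 with a median of 3.04 in activin library 1 and from 2.00 to 4.99 with a median of 2.64 in activin library 2. It was higher in library 1 for 422 regions and in library 2 for 238. Across regions the values of the libraries had a Pearson r of 0.251, which describes peaks selected to one range from libraries of different depth. Only 135 regions reached 3 in both. The authors' fold over background was low, with medians of 2.60 and 2.74.

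At either bound the rule divides near-identical values. Just inside the lower bound were regions near 1700074A21Rik and Yars2 (both 2.003 in the deciding library), and just outside it regions near Rab3gap1 and Gm12056 (both 1.996). Just inside the upper bound were regions near Sema5b (4.996) and Slc8a2 (4.994), and just outside it regions near Gm23090 (5.0005) and Pp2d1 (5.003).

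The peaks were short and carried few reads. Regions had a median length of 388 bp (140 to 1714). On the 620 autosomal regions the median number of high-quality reads was 120 in activin library 1 and 90 in activin library 2, or 1.71 and 1.83 reads per kb per 1000000 high-quality reads. Peaks of equal strength in regions called in all 4 libraries had 1.37 and 1.59, and the mixed-pair peaks had medians of 1.16 to 1.92. The peaks of the activin libraries overlapped by a median of 60.4% of their union, and by at least 50% in 430 regions. Fewer than 10 reads were listed for 20 of these 620 regions in activin library 1 and for 24 in activin library 2. Among all peaks of this strength in those libraries, 10.7% and 11.7% had fewer than 10. In 19 regions both activin libraries had fewer than 10 reads, and in 7 both had 0 in spite of the called peak. The other 40 regions lie on the X chromosome, for which the quality reports give no reads.

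A vehicle peak was seldom far away. The nearest one lay at a median of 3.23 kb (0.023 to 249), within 2 kb of 230 regions (34.8%) and within 500 bp of 26. It belonged to vehicle library 2 for 493 regions, but that library had 178358 called peaks against 83344 in vehicle library 1. Beyond 10 kb from any vehicle peak were 112 regions. These distances were not compared with those of another set of regions, so they are a description only.

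**Figure D2:**
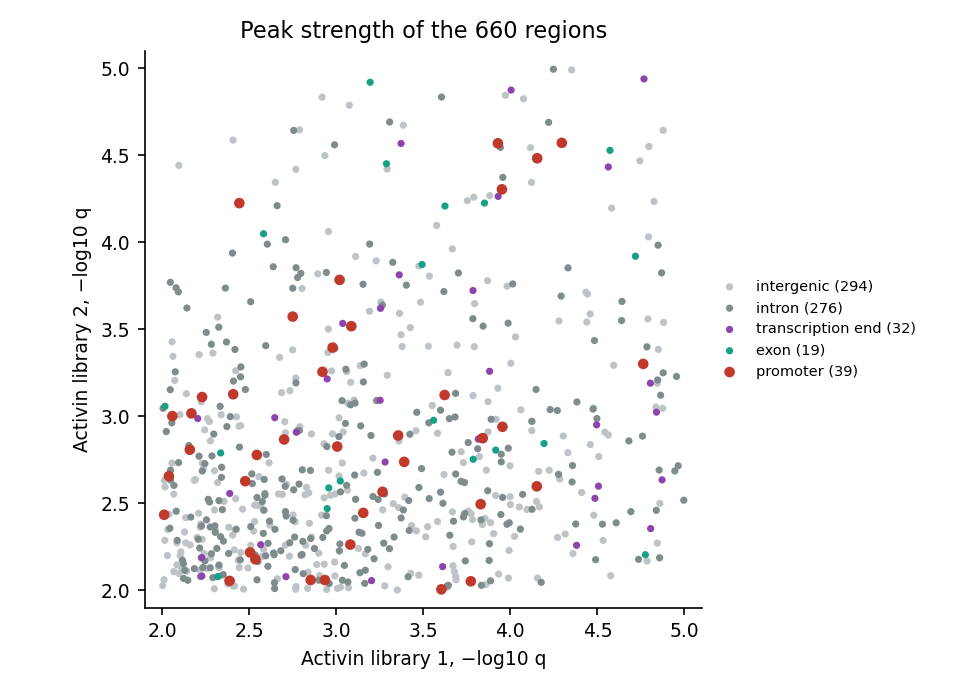
Authors' −log10 q of each of the 660 regions in activin library 1 (x axis) and activin library 2 (y axis), coloured by annotated feature with the number of regions in brackets. Points crowd towards the lower corner, only 135 lie at 3 or more in both libraries, and the 39 promoter regions are spread over the whole range.

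Most of the regions lay away from promoters, in introns and between genes. The authors' annotation placed 294 in intergenic sequence (44.5%, 95% Wilson interval 40.8 to 48.4), 276 in introns (41.8%, 38.1 to 45.6), 39 at promoters (5.91%, 4.35 to 7.98), 32 at transcription ends (4.85%, 3.46 to 6.76) and 19 in exons (2.88%, 1.85 to 4.45). Intervals cover counting error only. In the pooled mixed pairs 49.2% were intergenic, 39.0% intronic, 3.65% at promoters (2.61 to 5.08), 4.31% at transcription ends and 3.76% in exons. Promoters made up 6.27% of all merged regions and 29.7% of the 29896 regions with a peak in all 4 libraries. Of the 276 intronic regions, 103 (37.3%) lay in an intron 1. The gene with the nearest start site was the host gene for 151 of the 276, so for the others the named gene is a neighbour. Neither count was made for the mixed pairs or for all merged regions, so both are descriptions only.

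The promoter share exceeded that of the pooled mixed pairs by 2.26 percentage points (Newcombe 95% interval 0.144 to 4.57). It lay between 0.990% and 4.88% in the single mixed pairs and at 3.51% in the vehicle pair. The excess was not held in every setting. Counted as a peak centre within 1 kb of the annotated start, the shares were 5.91% and 5.42%, a difference of 0.489 points. Without activin library 1 or 2, when the rule asks for a peak of the remaining activin library alone, the difference was −3.49 and −2.24 points.

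Distances to genes were close to those of the mixed-pair regions. The median distance to a start site was 18.1 kb, against 18.97 kb for the mixed pairs. Within 10 kb of a start lay 33.8% and 33.0%. The annotated gene was protein-coding for 366 regions (55.5%), against 49.1% in the mixed pairs, where single pairs ranged from 40.1% to 56.8%. Of the 356 coding genes involved, 145 (40.7%) had a promoter peak in every library, against 154 of 437 (35.2%).

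**Figure D3:**
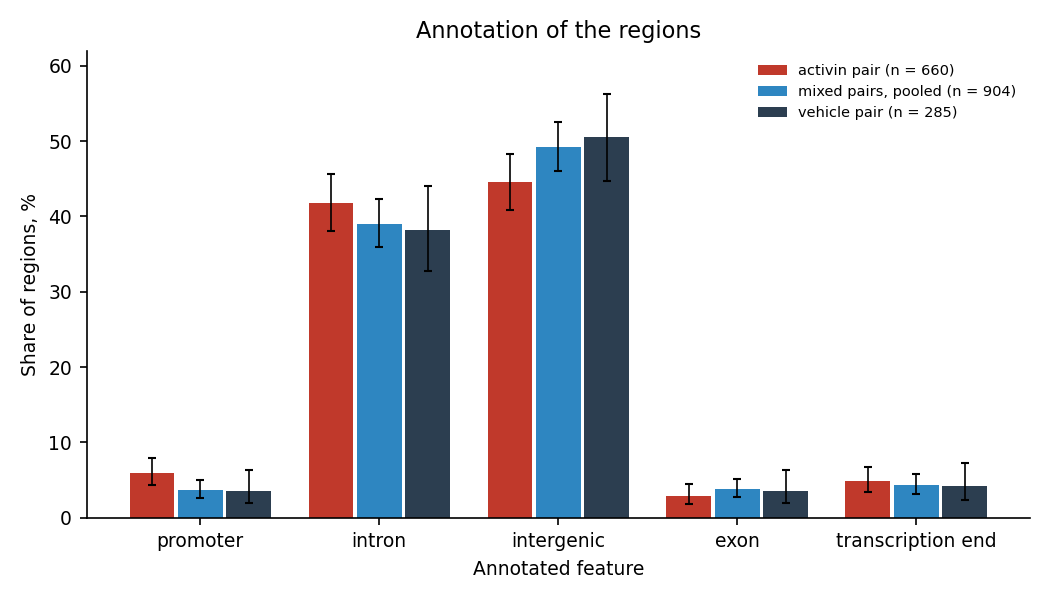
Share of regions (%) in each annotated feature for the activin pair, the 4 mixed pairs pooled and the vehicle pair; bars start at 0 and error bars are 95% Wilson intervals. Introns and intergenic sequence hold most regions of all 3 sets, and the promoter share is 5.91%, 3.65% and 3.51%.

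The regions lay nearer to chromatin that was strongly open in all libraries than mixed-pair regions did. The yardstick was the set of 10390 regions with a peak of −log10 q of 5 or more in all 4 libraries. The median distance to the nearest was 48.5 kb for the 660 regions, 75.9 kb for the pooled mixed pairs, 66.6 to 113 kb for the single mixed pairs and 82.0 kb for the vehicle pair. Within 50 kb lay 332 regions (50.3%, 46.5 to 54.1), against 368 (40.7%, 37.6 to 43.9) of the mixed pairs. Within 2 kb lay 26 (3.94%, 2.70 to 5.71), against 11 (1.22%, 0.681 to 2.17). To regions of any strength in all 4 libraries the medians were 17.8 and 20.4 kb. These intervals cover counting error only, since regions are not replicates of a treatment.

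**Figure D4:**
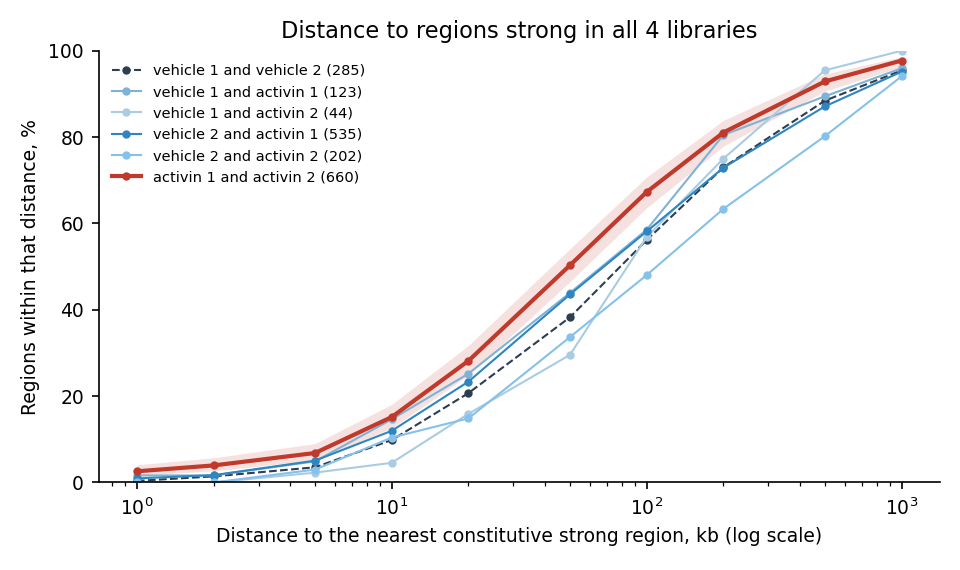
Share of regions (%) within a given distance (kb, log scale) of a region with −log10 q of 5 or more in all 4 libraries, for each pair of libraries with its number of regions in brackets; the shaded band is the 95% Wilson interval of the activin pair. The activin pair has 50.3% of its regions within 50 kb, and the other pairs 29.5% to 43.9%.

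The chromosomes that held the regions also differed. The X chromosome had 40 of 660 regions (6.06%, 4.48 to 8.15), against 3.65% (2.61 to 5.08) in the mixed pairs, 2.46% in the vehicle pair, 3.07% of regions in all 4 libraries and 1.59% of all merged regions. Chromosome 10 had 5.15%, against 2.65% in the mixed pairs. Chromosome 1 had 5.91% against 9.96%, chromosome 17 had 3.33% against 6.64%, and chromosome 2 had 6.52% against 9.18%. Chromosome 2 took 10.8% to 10.9% of the autosomal reads in every library, so its read share hardly differed between treatments. The 5 autosomes with the most reads per Mb (17, 2, 11, 16 and 7) held 28.0% of the regions, 33.2% of mixed-pair regions, 46.7% of vehicle-pair regions and 40.7% of all merged regions. Over the 19 autosomes, Spearman's rho between regions per Mb and reads per Mb was 0.382 for the 660 regions, 0.812 for the mixed pairs and 0.942 for all merged regions. These values describe chromosomes that share the same libraries and carry no test.

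**Figure D5:**
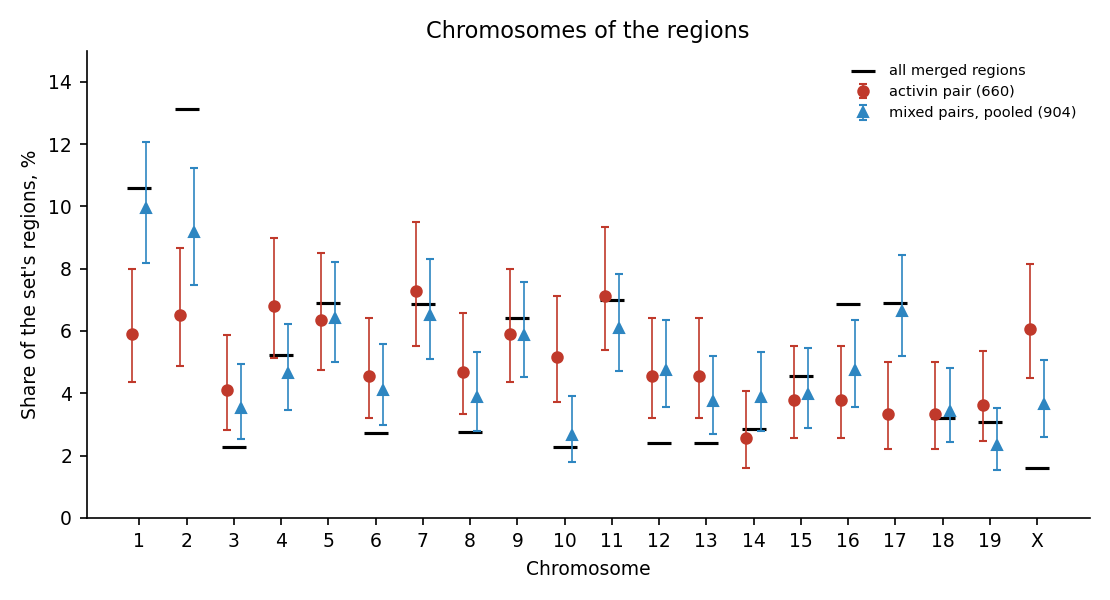
Share of each set's regions (%) by chromosome, for the activin pair (circles), the pooled mixed pairs (triangles) and all merged regions (black dashes); error bars are 95% Wilson intervals. On the X chromosome the activin pair stands at 6.06% against 1.59% of all merged regions, and on chromosome 2 at 6.52% against 13.1%.

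Of 41 genes of TGFβ-family receptors and ligands, 38 of them annotated to some merged region, Acvr2a, an activin receptor, was the only one with a member. This list held 0.152% of the 660 regions, near its 0.104% of all merged regions and below its 0.332% in the mixed pairs. The region lay in its intron 4 of 10 (chr2:48886005-48886275, GRCm38), with −log10 q of 2.61 and 2.27 in activin libraries 1 and 2 and with 88 and 81 reads. The Acvr2a promoter had a peak in activin library 1 alone, at 1.48. The mixed pairs had regions at 3 other genes of this list, Fstl1, Ltbp1 and Tgfbr1.

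Of 28 SMAD, feedback and target genes, 3 had a member (0.455% of the 660 regions), against 1 in the mixed pairs (0.111%) and 0.119% of all merged regions. Smurf1, a ubiquitin ligase that acts on SMADs and their receptors, had one in its intron 1 of 18 (chr5:144904093-144904748), at 2.02 and 2.91 with 208 and 117 reads. Id1 and Id4 encode inhibitors of basic helix-loop-helix factors and are textbook SMAD targets. The Id1 region was intergenic, 17.0 kb upstream of the start (chr2:152718988-152719480), at 3.64 and 3.25 with 267 and 193 reads. A peak of vehicle library 2 with −log10 q of 2.22 began 1321 bp away, in a region that met the rule for vehicle 2 with activin 2 (2.22 and 2.16). So neighbouring stretches of the same Id1 flank were counted in the activin pair and in a mixed pair. The Id4 region lay 15.8 kb upstream (chr13:48245470-48245862), at 3.53 and 2.96 with 114 and 78 reads. The promoters of both genes were open in every library. That of Id1 had 7.43 and 8.13 with vehicle and 13.7 and 9.91 with activin, and that of Id4 had 4.89 and 5.93 with vehicle and 10.0 and 8.39 with activin. For both genes the activin values were the higher pair, within lists called separately and at different depths, which do not measure a change.

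Egr3, an immediate-early zinc finger factor, was the only one of 20 AP-1 and immediate-early genes with a member (0.152% of the regions, against 0.111% in the mixed pairs and 0.0463% of all merged regions). The region was annotated to its promoter, 598 bp upstream of the start (chr14:70076747-70076967), at 3.27 and 2.57 with 138 and 98 reads. A peak of vehicle library 2 at 6.41 lay 1145 bp away, and the shared region 0.772 kb away differed by −0.15 on the log2 scale between treatments (limma, adjusted p = 0.789). Vehicle 1 with activin 1 gave another Egr3 region 15.8 kb from the start. Of 43 genes of GnRH receptor signalling, Camk2g, a calcium/calmodulin-dependent kinase, had a member in its intron 6 of 18 (chr14:20766063-20766220), at 3.96 and 4.37 with 94 and 91 reads. The mixed pairs had Itpr3 from that list. The list's share of the 660 regions, 0.152%, was that of all merged regions, 0.156%, and the mixed pairs had 0.111%.

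No gonadotrope gene had a member. This list held 16 genes, all annotated to some merged region, and the mixed pairs had one at Gnrhr. It made up 0.0447% of all merged regions, so a count of 0 among 660 is near that background. The regions nearest to the Fshb start were 2637 kb downstream of the gene, near Mir1902 (2.24 and 2.21), and 3145 kb upstream, near Gm13937 (2.22 and 2.24). No gene of the other pituitary lineages had a member either. That list of 10 genes made up 0.0239% of all merged regions, so 0 is again near background. The mixed pairs also had 0 there, and the vehicle pair had 1, at Gh.

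Neural adhesion and synapse genes, many of which are very long, had more members than any of the other 8 lists. Of 55 such genes, 6 had a member (0.909%), against 4 in the mixed pairs (0.442%) and 0.505% of all merged regions. They were Ntm, Cntn5, Ptprd, Cntnap2, Unc5d and Ptprt, with the weaker activin library between 2.28 and 3.76. Ntm and Cntnap2 also had mixed-pair regions. The Cntn5 and Unc5d regions were intergenic, 1016 and 381 kb from the start, and the Ntm region lay in an intron of the neighbouring Opcml. Ion channel genes had 2 members (0.303%), fewer than the 7 of the mixed pairs (0.774%) and below their 0.450% of all merged regions. Cacnb2 (2.12 and 2.17), which encodes a calcium channel subunit, had one in its intron 1 of 7. Cytoskeleton and migration genes had 2, Dock4 (2.64 and 2.22) and Itga2 (3.16 and 2.04), against 0 in the mixed pairs, which is 0.303% of the 660 regions against 0.189% of all merged regions. Over all 9 lists, 16 regions (2.42%) were near a listed gene, against 18 (1.99%) in the mixed pairs, 5 (1.75%) in the vehicle pair and 1.64% of all merged regions. No list was tested, and none of these shares is read as particular to the activin pair.

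Of the 39 promoter regions, 29 lay within 1 kb of the annotated start. At 26 of these starts neither vehicle library had a peak within 1 kb that was annotated to the same gene. The rule already barred vehicle peaks from the region itself, so this count is a description only. Net1, a guanine nucleotide exchange factor for RhoA, had the strongest of the 29 by the weaker library (chr13:3893455-3893673). It lay 14 bp past the start, at 4.15 and 4.48 with 84 and 91 reads. Kat2a, a histone acetyltransferase, followed (chr11:100712116-100712542), at 3.95 and 4.30 with 258 and 203 reads. The nearest vehicle peak to the Kat2a region was 12330 bp away. These are the windows whose letters are printed above.

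On the X chromosome, the Tmsb4x region (chrX:167209045-167209241) lay 5 bp past the start at 3.09 and 3.52, and no vehicle peak lay nearer than 78343 bp. Tmsb4x encodes thymosin β4, which binds monomeric actin. Mum1l1 (chrX:139217092-139217421) had 3.62 and 3.12. Klhl13, an adaptor of a cullin ubiquitin ligase, had a member at an alternative promoter 68.8 kb from the annotated start (chrX:23296123-23296400), at 4.30 and 4.57. Its annotated start had a peak in every library, at 4.36 and 4.46 with vehicle and 9.27 and 9.05 with activin. These values come from lists called separately and do not measure a change. Of the other promoter regions among the 10 strongest, Gm11365 (3.93 and 4.57) lay at the promoter of Cdkal1, which encodes a tRNA-modifying enzyme. Gm38059 had 4.76 and 3.30, Gm8113 had 3.02 and 3.78, Gm13321 had 2.98 and 3.39, and Smim3 (3.95 and 2.94) had a vehicle 1 peak of 1.14 near its start.

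Weaker promoter regions, chosen here after their values were seen because the genes are well known, included Lif, Marcks, Gad1 and Mgat3. Lif encodes a cytokine, and its region lay 60 bp upstream of the start at 2.93 and 2.06 with 261 and 181 reads. Marcks encodes a protein kinase C substrate (3.16 and 2.45), Gad1 the enzyme that makes GABA (2.75 and 3.57) and Mgat3 a glycosyltransferase (2.41 and 3.13). At Rap2a, a small GTPase, peaks of 2.17 and 3.02 were called where the quality reports list 1 and 0 high-quality reads.

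The strongest region of all by its weaker library lay at the transcription end of Lmod1, nearest to the start of Shisa4 (chr1:135368306-135368647), at 4.77 and 4.94 with 279 and 187 reads. Next were a region 2.74 kb from the start of Wdr75, which acts in ribosome production (4.88 and 4.64), and one near Gm37796 (4.80 and 4.55). The 10 strongest also held exon 23 of Tmem63a (near Gm36961, 4.57 and 4.53), a region 1.36 kb upstream of Bcr (4.74 and 4.47) and the transcription end of Tet3, a 5-methylcytosine dioxygenase (near Mir6374, 4.56 and 4.43). The others were Mro (4.35 and 4.99), Klhl13, intron 8 of 9 of the sodium-calcium exchanger Slc8a2 (4.25 and 4.99) and a region near Gm23838 (4.82 and 4.23). Vehicle peaks lay within 2 kb of the Shisa4, Gm36961, Bcr and Mro regions.

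The regions did not gather at a few genes. They were annotated to 647 genes, of which 13 had 2 regions and none had more. These were Aqp9, Man1c1, Scaf11, Scaf4, Ap4e1, Tmem104, Tmem106a, Cdk1, Nos1, A1cf, Gm11802, Gm38059 and RP23-477O15.2. The pair named for Cdk1 lay in introns of Ank3, 224 and 312 kb from the Cdk1 start, and the pair named for Gm11802 lay in introns of Tox. At Man1c1, a mannosidase of the Golgi, one region was in intron 1 of 8 (3.27 and 3.64) and one 10.4 kb upstream (3.79 and 3.12). At Tmem104 one was in intron 3 (2.51 and 2.37) and one in intron 6 of 8 (3.15 and 3.76). The other sets were spread as widely, with 904 mixed-pair regions annotated to 886 genes and 285 vehicle-pair regions to 281. Genes shared with mixed-pair regions numbered 28, or 4.33% of the 647 genes and 3.16% of the 886 genes of the mixed pairs. Those shared with vehicle-pair regions numbered 6, or 2.14% of the 281. The overlap of gene sets of these sizes drawn at random was not computed.

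Reads could be compared between treatments next to the 660 regions, in chromatin open in every library. For 367 of them there was within 50 kb a shared region, meaning an autosomal region with 1 peak of each library and a common part of at least 50% of their union, where reads can be compared. There were 358 such neighbours. Each library was centred on its median over all shared regions, which sets the overall difference to about 0. The neighbours' median log2 difference in read density, activin minus vehicle, was 0.00, against −0.00 over all 13871 shared regions and −0.02 next to mixed-pair regions. Both activin libraries were above both vehicle libraries in 69 (19.3%, against 20.9% of all shared regions), and below in 62 (17.3%, against 20.5%). By limma with Benjamini-Hochberg adjustment at 0.05, 0 of the 358 and 0 of all 13871 (0%) were called, with the smallest adjusted p at 0.282 and 0.184. At an unadjusted p under 0.05 there were 12 higher and 19 lower among the neighbours, and 502 and 820 among all (9.53%). When densities were scaled by library size instead, the median of the whole set moved to 0.27 and that of the neighbours to 0.28, and 605 of all shared regions (4.36%) and 13 of the neighbours (3.63%) were called. The promoters of the regions' own genes, 123 of which were shared, had a median difference of 0.02, against 0.03 for all 6410 shared promoters.

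The neighbour with the largest rise in value was an intronic region of ENSMUSG00000086899 (chr16:95834634-95835390), 14.1 kb from a region named for 2810404F17Rik. Its density per kb and 1000000 high-quality reads was 4.01 and 3.30 in vehicle libraries 1 and 2. In activin libraries 1 and 2 it was 7.03 and 6.11, so the groups did not overlap on that scale. Over all shared regions the median log2 difference on that scale was 0.27. With each library centred on its median, the log2 difference of this intronic region was 0.57 ± 0.10 SE (limma, adjusted p = 0.282). Another of the 3 highest was an intron 1 region of Ext1, which encodes a heparan sulfate polymerase (chr15:53155184-53156074). Its densities were 1.47 and 1.25 with vehicle against 2.11 and 2.17 with activin. Its centred log2 difference was 0.39 (limma, adjusted p = 0.487). A promoter region near 4933406C10Rik (chr12:32953626-32954958) had a difference of 0.40 (limma, adjusted p = 0.442), which was −0.01 when reads were not divided by peak length. The largest falls in value, near Aldh1a2 (−2.82), in Rims3 (−1.58) and near Gm7745 (−1.42), rested on 15 reads or fewer in every library, and none passed the test.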

How the data were processed

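Peaks were called on each library alone. Per the submitters' processing notes, Bowtie2, MACS2 and HOMER and the builds GRCm38 and mm10 were used; versions and settings are not given in the sources used here. The authors deposited, per peak, a whole-number score, a fold enrichment as a linear ratio, and −log10 values of p and q (p-value and q-value). Per the file headers, the peaks were annotated by HOMER, and a quality report by ataqv 1.3.1 gives high-quality reads per autosomal peak. Because each list is called alone, absence of a peak depends on that library's depth and background.

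Positions count from 1. Peaks were merged and the rule applied in Python 3.11.15 (pandas 2.3.3, scipy 1.17.1). For shared regions, log2((reads + 1) per kb of the own peak), centred on each library's median, was tested with limma 3.58.1 (R 4.3.3; trend, all 4 libraries, no block) and tested on simulated data. Shares carry 95% Wilson intervals. With 2 libraries per treatment the smallest exact permutation p is 0.333. Named regions were the 10 strongest, the 10 strongest at promoters, those at listed genes, genes with the most regions, those at the bounds, the 2 nearest Fshb, and the 3 highest and 3 lowest neighbours. The members and lists were chosen with earlier results of these data known. Alternatives changed the bounds, the merging, the peak number, the annotation, the read scaling and the libraries. Of the lists' 309 genes, 289 were annotated to a region. The sequence of regions away from RefSeq promoter windows was not used here. One listed gene's result is not reported here.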

Additional observations from a re-analysis of the deposited data

How the results depend on the processing

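Bounds, peak numbers and single libraries moved the counts. The number of regions, 660 in the report, was 1663 with the lower bound at 1.5, 135 at 3, 1142 with the same number of peaks in every library, 430 with no other peak within 2 kb, and 1147 to 4903 when single libraries were left out. Its excess over the highest mixed pair, 125 in the report, was −1450 at 1.5, 79 at 3, 190 with no upper bound, 569 with the same number of peaks, 18 with no other peak within 2 kb, and 41 to 1316 without a vehicle library; it has no value without an activin library. The promoter difference was 4.80 points at 3 and ranged from −3.49 to 3.40 when single libraries were left out. Calls among shared regions numbered 605 when scaled to all reads (553 higher and 52 lower), 39 without division by peak length, 1 with a pseudocount of 10 reads, and 0 to 9 when single libraries were left out. The median difference next to the regions was 0.28 when scaled to all reads and −0.024 with a common part of 80%. The shared region on chromosome 12 near 4933406C10Rik turned to −0.0076 without division by length. With a replicate block, 4 shared regions were called, and libraries of the same number did not deviate together (correlation −0.0252). Of the 62 named regions, 30 remained at a bound of 3, 42 with no other peak within 2 kb and 60 with peaks up to 500 bp apart merged. The causes were not tested. Read numbers on the X chromosome and in unpeaked vehicle chromatin were not used here, so no region could be tested for a change in reads.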
